A study of Danio rerio with 9 samples.

Results

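Fasting and feeding move a small set of liver genes in opposite directions. Here 9 genes of glucose metabolism and insulin response were followed across zebrafish livers of 3 genotypes. They are the gluconeogenic genes pck1, pck2, fbp1a and fbp1b, the glycolytic gene pklr, and the insulin response genes igfbp1a, igfbp1b, irs2a and irs2b. The genes were chosen by symbol with FPKM values of these same livers in view, so their levels and differences are given as a description, without a test of their own. In the table of 33716 gene IDs, 6 of these 9 symbols matched an ID. The symbols igfbp1a, irs2a and irs2b matched none, but 1 further ID carried the human name IGFBP1 and 2 carried IRS2. These 3 IDs complete the set of 9 and are called igfbp1 (ENSDARG00000099351), irs2 (ENSDARG00000037099) and irs2 (ENSDARG00000075282). Which irs2 ID is irs2a and which is irs2b was not settled.

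The liver makes glucose from lactate, amino acids and glycerol during fasting, and burns or stores glucose after a meal. In mammals, glucagon and glucocorticoids raise gluconeogenic genes such as PCK1. Insulin lowers such genes, along with IGFBP1 and IRS2, by keeping FOXO transcription factors out of the nucleus. Liver pyruvate kinase runs the other way and is raised in fed liver.

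The livers came from maternal-zygotic focad-/- null fish, maternal-zygotic pdia6-/- null fish and wild-type fish, with 3 RNA sequencing libraries each. The null fish have neither a working copy of their own nor the mother's product in the egg. Pdia6 makes an enzyme that forms disulfide bonds in secreted proteins, and focad makes focadhesin. The labels give an age of 3.5 months for the pdia6 null and wild-type fish, give none for the focad null fish, and name the AB line for wild type only. No source used here gives the feeding state, the sex or whether a library is 1 fish or a pool, so the replicate spread behind each p-value may be technical. Expression is in FPKM, a read count scaled to gene length and to library size, which the authors computed and which was rescaled here so that libraries share a common median ratio. Each library held 46.1 to 54.5 M reads assigned to genes, as recovered from the FPKM values.

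The targeted transcripts did not fully follow the labels. Transcript of focad was at 0.276, 0.528 and 0.24 FPKM in replicates 1 to 3 labelled focad null, against 1.13, 0.521 and 1.03 FPKM in wild type. Replicate 2 labelled focad null thus lay inside the wild-type range, but only just above wild-type replicate 2 and below wild-type replicates 1 and 3. Pdia6 stood at 44.2, 0.901 and 0.913 FPKM in libraries labelled pdia6 null, against 265, 14.2 and 56.3 FPKM in wild type. The library labelled pdia6 null replicate 1 lay inside that range as well. Libraries are therefore named by their label, and the main differences are given with and without these 2 libraries. Where they are said to go against their labels, only the level of the targeted transcript is meant. Whether a label is wrong or the allele leaves its transcript in place was not tested. All 9 libraries were rich in hepatocyte transcripts: the 13 markers matched summed to 148482 to 154300 FPKM in libraries labelled focad null, 158224 to 183303 in those labelled pdia6 null and 175248 to 188326 in wild type.

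The widest contrast among the 9 genes was at the entry to gluconeogenesis. Pck1 (ENSDARG00000013522) encodes the cytosolic phosphoenolpyruvate carboxykinase, which turns oxaloacetate into phosphoenolpyruvate. It stood at 1127, 1204 and 1566 FPKM in libraries labelled focad null, at 15.7, 20.3 and 142 FPKM in those labelled pdia6 null, and at 49.4, 749 and 1622 FPKM in wild type. All 3 libraries labelled focad null were high and close together, all 3 labelled pdia6 null were low, and the wild-type libraries spanned nearly the whole range between them. The wild-type libraries alone differed 32.8-fold. The mean was 1299 ± 235 FPKM in libraries labelled focad null and 807 ± 788 FPKM in wild type (SD, n = 3 each). On the log2(FPKM + 1) scale of a limma fit to all genes, libraries labelled focad null were 5.12 ± 1.25 (SE) above those labelled pdia6 null, without overlap. The difference from wild type was 1.71 ± 1.25 for libraries labelled focad null and -3.41 ± 1.25 for those labelled pdia6 null, and both sets overlapped the wild-type range. The fit takes 1 spread per gene from all 3 groups, so a gene has the same SE in every comparison. These are bulk livers, so fewer cells that express a gene and less RNA per cell cannot be told apart.

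Pck2 (ENSDARG00000020956), the mitochondrial form of the same enzyme, was far steadier. Its levels were 377, 284 and 443 FPKM in libraries labelled focad null, 286, 362 and 314 FPKM in those labelled pdia6 null, and 297, 258 and 233 FPKM in wild type. All 3 groups overlapped, and the log2 differences from wild type were 0.47 ± 0.25 for libraries labelled focad null and 0.29 ± 0.25 for those labelled pdia6 null. The cytosolic form stood at 2.99, 4.24 and 3.53 times the mitochondrial form in libraries labelled focad null. That ratio was 0.0549, 0.0561 and 0.451 in those labelled pdia6 null, and 0.166, 2.91 and 6.95 in wild type. The cytosolic form was thus the more abundant one in all 3 libraries labelled focad null, in none labelled pdia6 null and in wild-type replicates 2 and 3.

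Fructose bisphosphatase, the next controlled step towards glucose, is encoded by 2 of the genes, and fbp1b (ENSDARG00000020364) gave nearly all of the transcript. Fbp1b stood at 1313, 785 and 1543 FPKM in libraries labelled focad null, 233, 1935 and 1830 FPKM in those labelled pdia6 null, and 603, 2214 and 975 FPKM in wild type. The groups overlapped throughout, and the lowest value belonged to the library labelled pdia6 null replicate 1. The log2 differences from wild type were 0.10 ± 0.83 and -0.22 ± 0.83 for libraries labelled focad null and pdia6 null. Fbp1a (ENSDARG00000021366) ranged from 4.4 to 5.69 FPKM, from 1.42 to 6.57 FPKM and from 3.05 to 9.89 FPKM in libraries labelled focad null, in those labelled pdia6 null and in wild type. Per length, fbp1b exceeded fbp1a 120.2-fold to 436-fold across the 9 libraries. Neither gene separated any pair of groups. Without the 2 libraries that go against their labels, the fbp1b difference turned to 0.78 for libraries labelled pdia6 null against wild type.

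**Figure D1:**
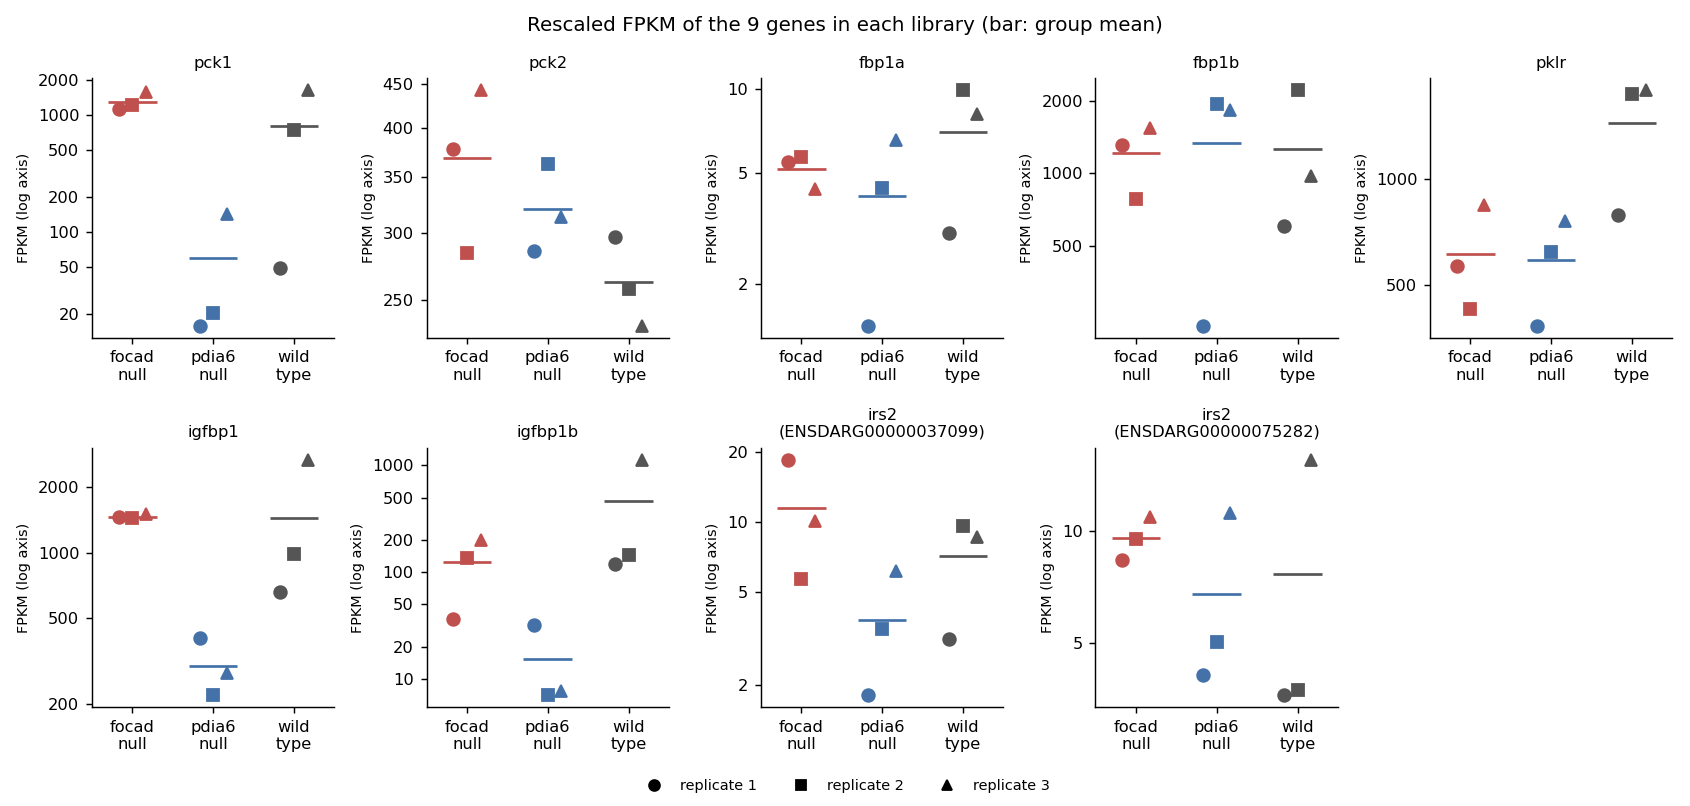
FPKM of each of the 9 genes in each library, on log axes that differ between panels. Points are libraries (circle, square and triangle for replicates 1, 2 and 3) and bars are group means of 3 libraries. Pck1, igfbp1 and igfbp1b are higher in all 3 libraries labelled focad null than in all 3 labelled pdia6 null, and wild type spans 49.4 to 1622 FPKM for pck1.

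The glycolytic gene pklr was lower in every library labelled pdia6 null than in wild type. Pklr (ENSDARG00000042010) encodes the liver pyruvate kinase, which makes pyruvate at the end of glycolysis. It stood at 565, 425 and 840.4 FPKM in libraries labelled focad null, 381, 619 and 761 FPKM in those labelled pdia6 null, and 789, 1750 and 1790 FPKM in wild type. Libraries labelled pdia6 null and wild type did not overlap, and the library labelled focad null replicate 3 alone reached above wild-type replicate 1. The means were 610.1 ± 211 FPKM, 587 ± 192 FPKM and 1443 ± 566 FPKM (SD, n = 3 each) for focad null, pdia6 null and wild type. The log2 differences from wild type were -1.20 ± 0.43 and -1.26 ± 0.43 for libraries labelled focad null and pdia6 null. Both use the same 3 wild-type libraries, so their likeness is not independent. Between libraries labelled focad null and pdia6 null the difference was 0.055 ± 0.43.

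Set against pklr, the gluconeogenic genes gave different pictures. Pck1 over pklr, a ratio of FPKM levels, was 1.99, 2.83 and 1.86 in libraries labelled focad null. It was 0.0412, 0.0329 and 0.186 in those labelled pdia6 null, and 0.0626, 0.428 and 0.906 in wild type. Pck1 thus exceeded pklr in all 3 libraries labelled focad null and in none of the other 6. The library labelled focad null replicate 2, which goes against its label, had the highest ratio, and without it the remaining 2 still lay above every wild-type library. Libraries labelled pdia6 null overlapped wild type, whose replicate 1 fell between the lower pair and the third of them. The group difference in log2(pck1 + 1) minus log2(pklr + 1) was 2.91 for focad null against wild type, -2.15 for pdia6 null against wild type and 5.06 for focad null against pdia6 null. With 1 library left out these ran from 1.81 to 3.73, from -3.25 to -1.34 and from 4.60 to 5.82. Without wild-type replicate 1 the comparisons with wild type gave 1.81 and -3.25, and without wild-type replicate 3 that of pdia6 null gave -1.34. Its terms are genes chosen on these same values, so no test is given for it.

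Pck2 over pklr was 0.666, 0.668 and 0.528 in libraries labelled focad null, 0.75, 0.585 and 0.412 in those labelled pdia6 null, and 0.376, 0.147 and 0.13 in wild type. This ratio was higher in all 6 libraries of the null groups than in all 3 of wild type, although pck2 itself overlapped between all groups. Fbp1b over pklr was 2.32, 1.85 and 1.84 in libraries labelled focad null, 0.611, 3.12 and 2.4 in those labelled pdia6 null, and 0.765, 1.27 and 0.545 in wild type. All 3 libraries labelled focad null lay above wild type, and libraries labelled pdia6 null fell on both sides of it.

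**Figure D2:**
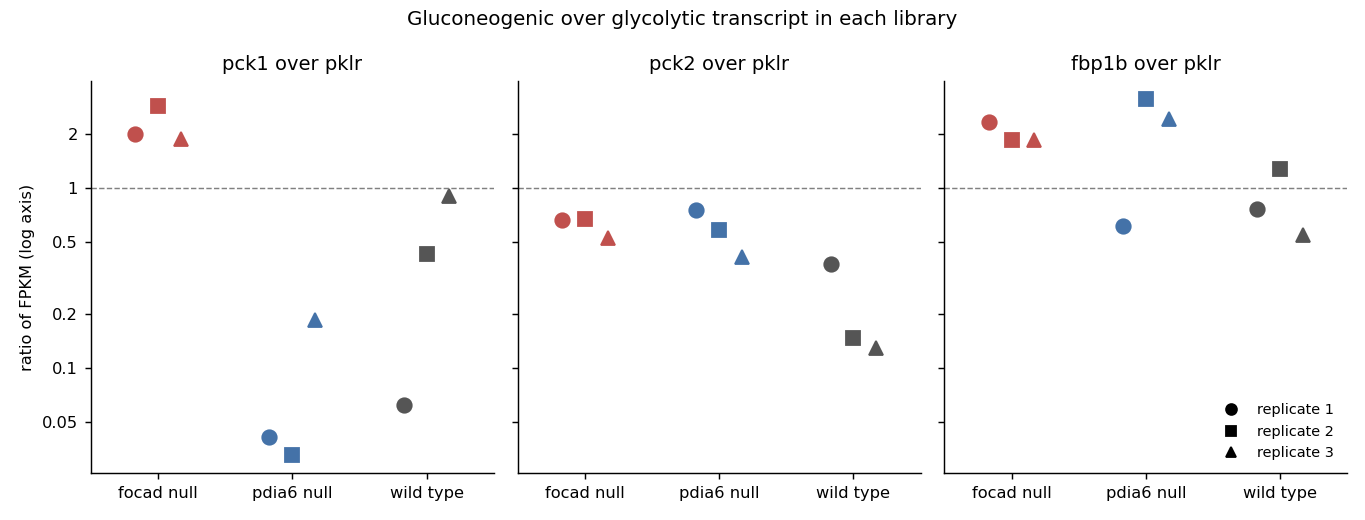
Ratio of FPKM of pck1, pck2 and fbp1b to that of pklr in each library, on a shared log axis, with a dashed line at equal levels. Pck1 over pklr lies between 1.86 and 2.83 in libraries labelled focad null and below 1 in the other 6 libraries.

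Of the insulin response genes, both igfbp1 genes were lowest in libraries labelled pdia6 null, and the irs2 genes overlapped between groups. Igfbp1 (ENSDARG00000099351) encodes a secreted protein that binds insulin-like growth factors and limits their action. It stood at 1452, 1438 and 1500 FPKM in libraries labelled focad null, 403, 219 and 279 FPKM in those labelled pdia6 null, and 656, 981 and 2688 FPKM in wild type. Every library labelled pdia6 null lay below every other library, while libraries labelled focad null lay inside the wild-type range. The 3 libraries labelled focad null were almost equal, with an SD of 0.03 on the log2 scale that was undercut by 1.67% of all genes tested. The SD was 0.44 in those labelled pdia6 null and 1.05 in wild type, and the SE below draws on all 3 groups. The log2 difference was 2.33 ± 0.49 for libraries labelled focad null against those labelled pdia6 null, -2.04 ± 0.49 for those labelled pdia6 null against wild type, and 0.28 ± 0.49 for those labelled focad null against wild type.

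Igfbp1b (ENSDARG00000038666), a second gene for this binding protein, stood lower throughout. It was at 36.7, 137 and 199 FPKM in libraries labelled focad null, 31.9, 7.06 and 7.77 FPKM in those labelled pdia6 null, and 119.7, 146 and 1133 FPKM in wild type. Libraries labelled pdia6 null were again below all the others, narrowly so for replicate 1, which nearly met the library labelled focad null replicate 1. The log2 difference was 2.94 ± 0.99 for libraries labelled focad null against those labelled pdia6 null and -4.36 ± 0.99 for those labelled pdia6 null against wild type. For libraries labelled focad null against wild type it was -1.42 ± 0.99, with overlap. Igfbp1 exceeded igfbp1b 7.55-fold to 39.6-fold in libraries labelled focad null, 12.6-fold to 35.9-fold in those labelled pdia6 null, and 2.37-fold to 6.73-fold in wild type. This ratio was higher in all 6 libraries of the null groups than in all 3 of wild type.

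The irs2 genes encode an adaptor that carries the signal from the insulin receptor to the kinases inside the cell. Irs2 (ENSDARG00000037099) stood at 18.5, 5.69 and 10.1 FPKM in libraries labelled focad null, 1.81, 3.47 and 6.16 FPKM in those labelled pdia6 null, and 3.17, 9.65 and 8.62 FPKM in wild type. Every pair of groups overlapped, the closest to parting being libraries labelled focad null and pdia6 null, with a log2 difference of 1.33 ± 0.52. Irs2 (ENSDARG00000075282) stood at 8.38, 9.53 and 10.9 FPKM in libraries labelled focad null, 4.09, 5.04 and 11.2 FPKM in those labelled pdia6 null, and 3.61, 3.73 and 15.6 FPKM in wild type. Here too all groups overlapped, and the log2 difference from wild type was 0.56 ± 0.52 for libraries labelled focad null and 0.019 ± 0.52 for those labelled pdia6 null.

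All 9 genes passed the filter of a mean of 0.5 FPKM. The fit over the 13289 genes that did so called none of the 9 in any comparison at an adjusted p of 0.05 (limma, Benjamini-Hochberg), beside 1.56% of all genes for focad null against wild type, 1.23% for pdia6 null against wild type and 1.2% for focad null against pdia6 null. At an unadjusted limma p of 0.05, 1 of 9 passed for focad null against wild type, beside 14.7% of all genes. For pdia6 null against wild type 4 of 9 passed, beside 12.5%, and for focad null against pdia6 null 4 of 9, beside 17.9%. The limma voom fit on recovered reads called 0 of 9 in each comparison. By the adjusted p of the authors' deposited tables, none of the 9 genes was called, beside 1.15% of all genes for focad null and 1.69% for pdia6 null against wild type.

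Libraries of the 2 groups did not overlap for 0 of 9 genes between focad null and wild type, beside 20% of all genes. For pdia6 null against wild type 3 of 9 were lower without overlap (pklr, igfbp1 and igfbp1b), beside 11% of all genes. For focad null against pdia6 null 3 of 9 were higher without overlap (pck1, igfbp1 and igfbp1b), beside 13.2%. The genes were named from these contrasts, so nothing is read from the shares. The median log2 difference of the 9 genes was 0.28 for focad null against wild type, -0.75 for pdia6 null against wild type and 0.55 for focad null against pdia6 null, beside 0.011, -0.006 and 0.014 for all genes tested.

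**Figure D3:**
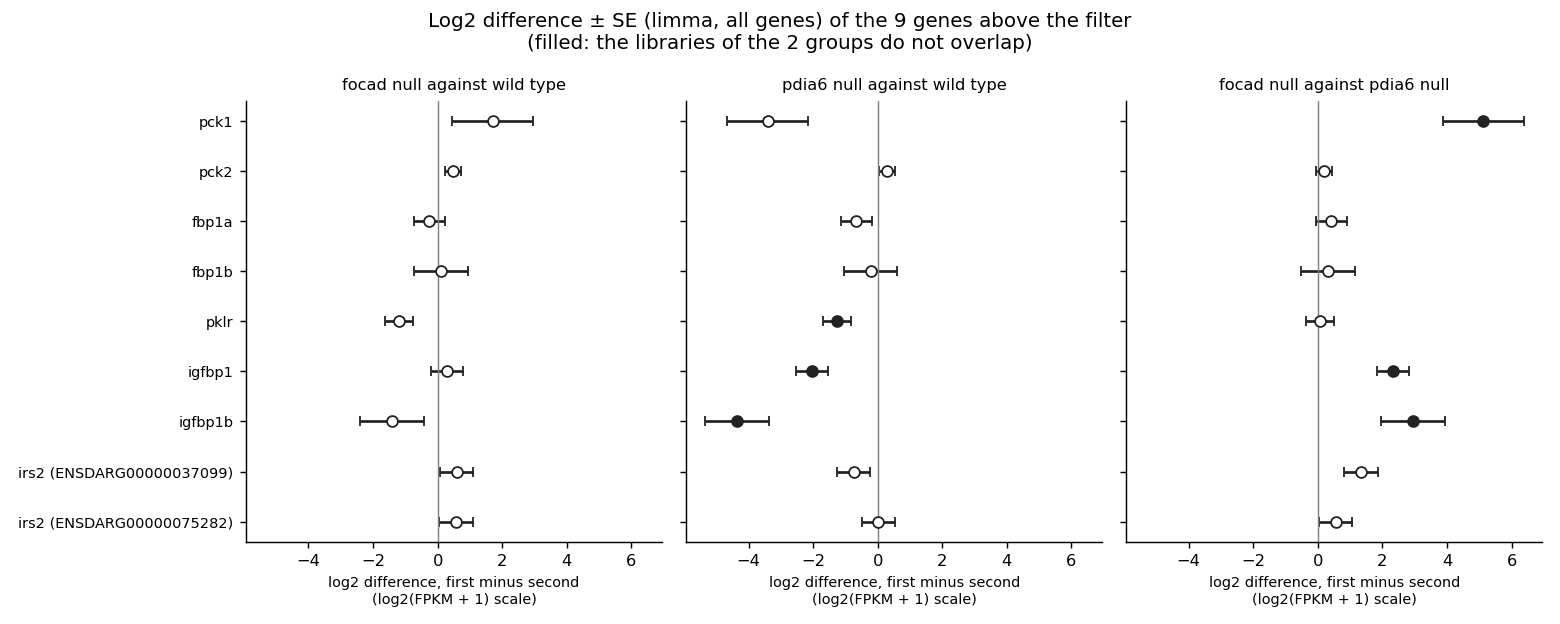
Log2 difference ± SE on the log2(FPKM + 1) scale for the 9 genes in the fit, in 3 comparisons of 3 libraries against 3, the group named first minus the other. Filled points mark genes whose libraries do not overlap. The 2 comparisons against wild type share the wild-type libraries, and the 3 filled points of focad null against pdia6 null are pck1, igfbp1 and igfbp1b at 5.12, 2.33 and 2.94.

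Without the 2 libraries that go against their labels, the direction held for pck1, pklr, igfbp1 and igfbp1b in the contrasts named above. Pck1 was then 4.60 higher in libraries labelled focad null than in those labelled pdia6 null, and its difference from wild type was 1.76 for focad null and -2.84 for pdia6 null. Pklr differed from wild type by -0.97 for focad null and -0.98 for pdia6 null. Igfbp1 and igfbp1b differed from wild type by -2.28 and -5.02 for pdia6 null. Both binding protein genes were then higher in focad null than in pdia6 null, by 2.58 and 3.37. No gene of the set was called in these fits either. One library decided whether pck1 passed: without wild-type replicate 1, its differences of -4.89 for pdia6 null against wild type and 5.12 for focad null against pdia6 null passed the adjusted threshold, while its difference for focad null against wild type was then 0.22 in place of 1.71. Without wild-type replicate 3, igfbp1 passed for focad null against pdia6 null, at 2.33. It also passed when only the 6 libraries of these groups were fitted (limma adjusted p = 0.0325).

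Replicates of a group differed from each other at these genes more than they did at most others. The SD within groups, pooled over the 3 groups on the log2 scale, was 1.81 for pck1, and 99.4% of genes tested had a lower one. It was 1.43 for igfbp1b and 1.18 for fbp1b, above 98% and 96.5% of genes. Pck2 was the exception at 0.23, which only 25.5% of genes undercut, and the median of all genes was 0.35. The remaining 5 genes lay between 0.56 and 0.73.

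The spread followed particular libraries. Wild-type replicate 1 was the lowest of its group in 8 of the 9 genes and the highest in the other, pck2. The library labelled pdia6 null replicate 1, which goes against its label, was the lowest of its group in 7 genes and the lowest of all 9 libraries in 5. Wild-type replicate 3 was the highest of all 9 libraries in 5 genes (pck1, pklr, igfbp1, igfbp1b and irs2 (ENSDARG00000075282)). The library labelled focad null replicate 3 was the highest of its group in 7. These counts cover the 9 genes alone, with no count over all genes beside them. No cause of this spread was tested.

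The order of group means, compared per length, differed between groups in the places of pck1, pklr and igfbp1. In libraries labelled focad null, igfbp1 (1463 ± 32.4 FPKM), pck1 (1299 ± 235) and fbp1b (1214 ± 388) led, and these neighbours did not differ beyond their spread. In libraries labelled pdia6 null, fbp1b (1332 ± 954) led, followed by pklr (587 ± 192), pck2 (321 ± 38.8) and igfbp1 (300.3 ± 93.9), with pck1 next below them. In wild type, pklr (1443 ± 566), igfbp1 (1442 ± 1091), fbp1b (1264 ± 844) and pck1 (807 ± 788) led within each other's spread. These orders did not hold in every library. In that labelled pdia6 null replicate 1, fbp1b (233 FPKM) lay below pklr (381), igfbp1 (403) and pck2 (286). In wild-type replicate 1, pck1 (49.4 FPKM) lay below pck2 (297) and igfbp1b (119.7). Fbp1a and both irs2 genes stayed below 20 FPKM in every library.

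Other genes of the same pathways were read from lists of partners. Their counts stand beside the shares of all genes tested that passed an unadjusted limma p of 0.05. That share was 14.7% for focad null against wild type, 12.5% for pdia6 null against wild type and 17.9% for focad null against pdia6 null. The list of gluconeogenesis partners had 22 of 25 gene IDs tested and none called in any comparison (limma), with 4, 0 and 5 at an unadjusted p of 0.05 for focad null against wild type, pdia6 null against wild type and focad null against pdia6 null. Its median log2 difference was -0.07, -0.15 and 0.28 in that order. The glucagon receptor gene gcgra had the lowest p for focad null against pdia6 null, with 5.8 ± 2.18 FPKM in libraries labelled focad null and 15.2 ± 2.23 FPKM in those labelled pdia6 null (limma adjusted p = 0.102). The glucose phosphatase gene g6pc3 followed at 0.648 ± 0.0853 and 1.59 ± 0.335 FPKM in the same groups. The transcription factor gene creb3l3b had 8.89 ± 4.54 FPKM in libraries labelled focad null and 3.48 ± 1.23 FPKM in wild type, and gcgra had 5.8 ± 2.18 and 10.7 ± 3.27 FPKM there. Gcgrb had 8.77 ± 3.21 FPKM in libraries labelled pdia6 null and 4.17 ± 0.661 FPKM in wild type, and creb3l3a had 18.6 ± 5.99 and 7.08 ± 6.09 FPKM.

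Glucose phosphatase itself, the last step of gluconeogenesis, was looked at after the values were seen. G6pc1 (ENSDARG00000013721, matched by its human name) stood at 2060, 1071 and 1991 FPKM in libraries labelled focad null, 124, 126 and 1272 FPKM in those labelled pdia6 null, and 539, 624 and 2698 FPKM in wild type. Like pck1 it was low in libraries labelled pdia6 null replicates 1 and 2, but replicate 3 lay within the range of libraries labelled focad null, and it was not called in any comparison (limma). A further gene of this enzyme, g6pc1a.1 (ENSDARG00000031616), shared this pattern only in part. It stood at 192, 81.8 and 268 FPKM in libraries labelled focad null and 94.7, 89.4 and 289 FPKM in those labelled pdia6 null. In wild type it was at 112, 283 and 343 FPKM, and all groups overlapped. Replicates 1 and 2 labelled pdia6 null again lay well below replicate 3. Both nevertheless exceeded the lowest focad null value of 81.8 FPKM, unlike for g6pc1.

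Of the glycolysis partners, 24 of 40 gene IDs were tested and none was called (limma), with 6, 3 and 8 at an unadjusted p of 0.05. The median log2 difference was 0.19, -0.19 and 0.43. The lactate dehydrogenase gene ldhb (ENSDARG00000019644) came nearest, with 28.1 ± 10.7 FPKM in libraries labelled focad null and 206 ± 155 FPKM in wild type (limma adjusted p = 0.0503), lower in 3 of 3 libraries. The far more abundant ldhbb (ENSDARG00000071076), of the same enzyme, did not share this fall. It stood at 2715, 1249 and 2830 FPKM in libraries labelled focad null and 1629, 1673 and 1084 FPKM in wild type, with overlap. Pfkfb3, whose product makes an activator of glycolysis, had 3.29 ± 2.29 FPKM in libraries labelled focad null, 0.415 ± 0.255 FPKM in those labelled pdia6 null and 0.635 ± 0.144 FPKM in wild type. The enolase gene eno1 (ENSDARG00000022456) had 18.9 ± 13.7 FPKM in libraries labelled focad null and 3.37 ± 3.45 FPKM in those labelled pdia6 null. The far more abundant enolase gene eno3 was not higher in focad null. It stood at 549, 226 and 1296 FPKM there and at 635, 1817 and 1498 FPKM in libraries labelled pdia6 null, with overlap. Both pfkfb3 and eno1 were highest in the library labelled focad null replicate 2, which goes against its label, at 5.63 and 34.7 FPKM. The glucose phosphate isomerase gene gpi (ENSDARG00000012987) had 182 ± 29.7 FPKM in libraries labelled pdia6 null and 338 ± 95.8 FPKM in wild type, and the mutase gene pgam1b had 5.55 ± 0.0608 and 9.08 ± 2.59 FPKM.

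The insulin and IGF signalling list, with its receptors, kinases and binding proteins, had 29 of 40 gene IDs tested and none called (limma), with 2, 1 and 2 at an unadjusted p of 0.05. The medians were -0.087, 0.037 and -0.15. Grb14, an adaptor that dampens the insulin receptor, had 0.934 ± 0.108 FPKM in libraries labelled focad null, 0.754 ± 0.452 FPKM in those labelled pdia6 null and 0.229 ± 0.138 FPKM in wild type. Its relative grb10 (ENSDARG00000002013) had 1.95 ± 0.997, 4.44 ± 1.5 and 4.26 ± 1.54 FPKM in the same order of groups. Igfals, which holds insulin-like growth factors in blood, had 382 ± 93.4 FPKM in libraries labelled pdia6 null and 243 ± 26.1 FPKM in wild type. The kinase subunit gene pik3cb had 4.81 ± 1.07 FPKM in libraries labelled focad null and 3.09 ± 0.499 FPKM in those labelled pdia6 null.

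The fasting response list, genes raised in fasting mammalian liver or by FOXO or PPAR alpha, was the only list with called members, and these did not move together. It had 28 of 30 gene IDs tested. For focad null against wild type, 1 rose and 0 fell, beside 1.56% of all genes called. For pdia6 null against wild type, 2 rose and 0 fell, beside 1.23%, and for focad null against pdia6 null, 1 rose and 1 fell, beside 1.2%. At an unadjusted limma p of 0.05, 9, 9 and 8 of the list passed, beside 14.7%, 12.5% and 17.9% of all genes. The median log2 difference of the list was 0.48, -0.056 and 0.42 in that order.

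Ddit4 (ENSDARG00000037618), an inhibitor of the growth kinase TOR, rose in libraries labelled focad null. Its level was 80.1, 70.2 and 41.1 FPKM there, 1.47, 0.331 and 3.81 FPKM in those labelled pdia6 null, and 8.81, 1.52 and 8.38 FPKM in wild type. Libraries labelled focad null were higher in 3 of 3 than every other library. The log2 difference was 3.34 ± 0.62 against wild type (limma adjusted p = 0.0419) and 4.64 ± 0.62 against libraries labelled pdia6 null (limma adjusted p = 0.012). Against wild type the call was lost when any of these libraries alone was left out: wild-type replicates 1, 2 or 3, those labelled focad null replicates 1 or 2, or that labelled pdia6 null replicate 1. The adjusted p ranged from 0.0318 to 0.17 over 20 alternatives, of which 6 passed. Against libraries labelled pdia6 null it passed in 15 of 20 (0.00914 to 0.0895) and was lost without the library labelled focad null replicate 1 (0.0641) or pdia6 null replicate 1 (0.0527). Without the 2 libraries that go against their labels the log2 differences were 3.26 and 4.54, with adjusted p = 0.13 and 0.0895 (limma).

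Ehhadh and slc25a20 rose in libraries labelled pdia6 null against wild type. Ehhadh (ENSDARG00000070029), a peroxisomal enzyme of fatty acid oxidation, stood at 95.3, 137 and 122 FPKM in libraries labelled pdia6 null, against 40, 32.5 and 31.8 FPKM in wild type, a log2 difference of 1.73 ± 0.26 (limma adjusted p = 0.0206). In libraries labelled focad null ehhadh stood at 94.2, 81.8 and 57.6 FPKM, also above every wild-type library, with a log2 difference from wild type of 1.12 ± 0.26 that was not called (limma adjusted p = 0.09). Between the null groups the difference of ehhadh was -0.61 ± 0.26 (limma adjusted p = 0.272). Slc25a20 (ENSDARG00000040401), the mitochondrial carnitine and acylcarnitine carrier, stood at 188, 182 and 156 FPKM there, against 80, 85.1 and 73.7 FPKM in wild type, a log2 difference of 1.13 ± 0.21 (limma adjusted p = 0.0443). Its level in libraries labelled focad null was 67.3, 67.1 and 81.8 FPKM, lower than in those labelled pdia6 null by a log2 difference of -1.28 ± 0.21 (limma adjusted p = 0.0277). Each gene was higher in 3 of 3 libraries labelled pdia6 null than in every wild-type library. Ehhadh passed in 14 of 20 alternatives (adjusted p 0.0156 to 0.0899) and was lost without wild-type replicate 2 or 3 or without libraries labelled pdia6 null replicate 2 or 3, with 0.0884, 0.0844, 0.0899 and 0.0735 in that order. Without the 2 libraries that go against their labels it still passed, at 0.0306. Slc25a20 passed in 4 of 20 against wild type (0.0374 to 0.173) and in 9 of 20 between the null groups (0.0253 to 0.13). When single libraries were left out, against wild type only the omission of the library labelled focad null replicate 2 kept its call, and between the null groups only that of wild-type replicate 1 or of the library labelled focad null replicate 3 did. Without the 2 libraries that go against their labels its adjusted p was 0.0752 and 0.0977 in these comparisons.

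Genes that feeding raises in mammals were not called. The feeding lipid synthesis list had 18 of 21 gene IDs tested, with 4, 5 and 5 at an unadjusted limma p of 0.05 and medians of 0.22, 0.16 and -0.082. Acacb, an acetyl-CoA carboxylase, had 19 ± 5.22 FPKM in libraries labelled focad null, 20 ± 5.26 FPKM in those labelled pdia6 null and 5.03 ± 3.03 FPKM in wild type. Thrsp, a lipogenic protein gene, had 2095 ± 1071 FPKM in libraries labelled focad null and 280.0 ± 363 FPKM in wild type. The desaturase gene scd had 46.3 ± 38.3 FPKM in libraries labelled focad null and 0.749 ± 0.519 FPKM in those labelled pdia6 null, and pgd had 41.1 ± 21.7 and 11.3 ± 4.77 FPKM there. One citrate carrier gene, slc25a1a, had 0.43 ± 0.316 FPKM in libraries labelled pdia6 null and 2.89 ± 0.864 FPKM in wild type. A more abundant one, slc25a1 (ENSDARG00000076381), overlapped at 15.6, 13.1 and 30.9 FPKM and at 21, 17.4 and 9.82 FPKM in these groups.

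The glycogen list had 23 of 27 gene IDs tested, none called (limma), with 5, 2 and 5 at an unadjusted p of 0.05 and medians of 0.14, -0.02 and 0.025. The liver glycogen phosphorylase gene pygl had 461 ± 222 FPKM in libraries labelled pdia6 null and 159.9 ± 26.8 FPKM in wild type, and the liver glycogen synthase gene gys2 had 58 ± 19.5 and 145 ± 74.4 FPKM. Ppp1r3b, which directs a phosphatase to glycogen, had 61.2 ± 37.3 FPKM in libraries labelled focad null and 7.95 ± 2.99 FPKM in those labelled pdia6 null. Phka2, a phosphorylase kinase subunit, had 2.15 ± 0.653 FPKM in libraries labelled focad null, 4.23 ± 1.06 FPKM in those labelled pdia6 null and 4.24 ± 0.501 FPKM in wild type. Ugp2 (ENSDARG00000008200) had 7.26 ± 2.25 FPKM in libraries labelled focad null and 3.04 ± 0.758 FPKM in wild type. The more abundant ID of that name, ugp2 (ENSDARG00000005578), went the other way without overlap. It stood at 69.7, 19 and 78.9 FPKM in libraries labelled focad null and 84.4, 140.0 and 90.4 FPKM in wild type.

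**Figure D4:**
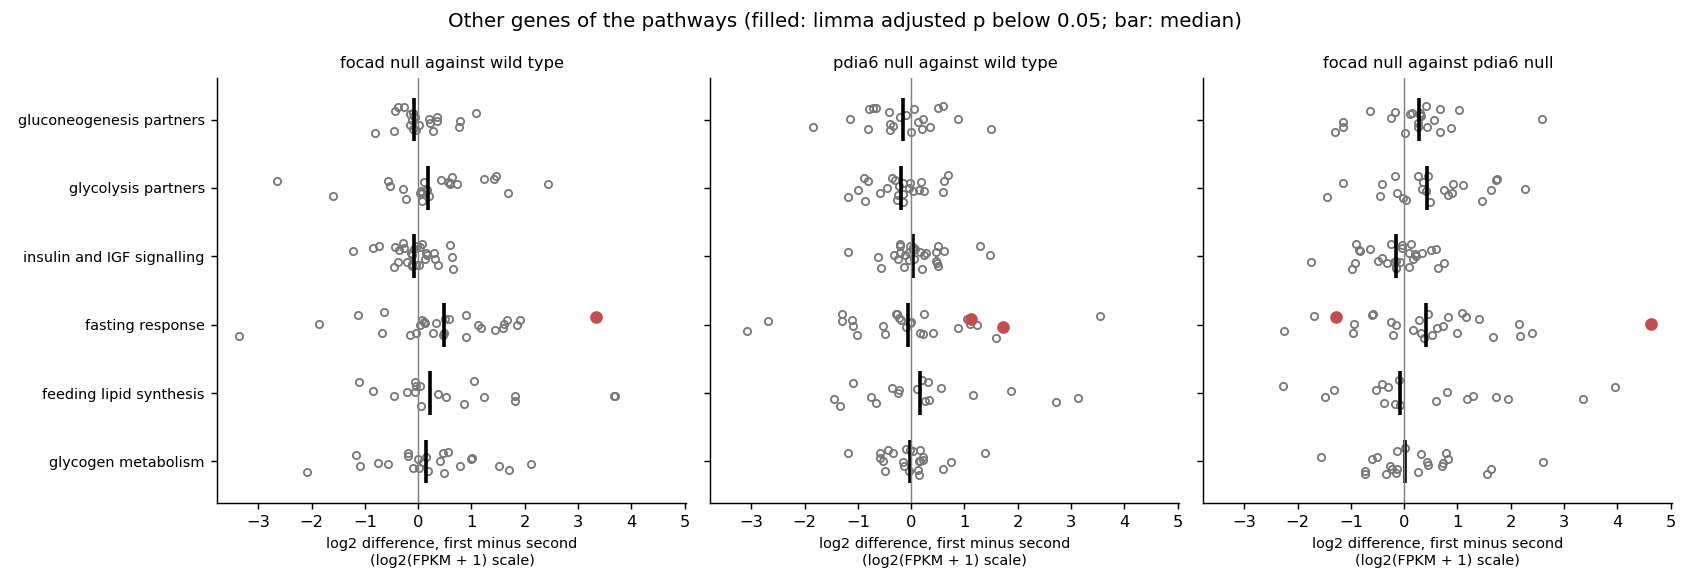
Log2 difference on the log2(FPKM + 1) scale of each tested gene in 6 pathway lists, the 9 genes left out, in 3 comparisons, the group named first minus the other. Black bars are list medians and filled points are genes with a limma adjusted p below 0.05, which occur in the fasting response list alone (ddit4, ehhadh and slc25a20).

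Markers of neighbouring organs differed between the groups as well. Insulin transcript (ins), made in the endocrine pancreas, stood at 199, 147 and 7.33 FPKM in libraries labelled focad null, 3.72, 9.01 and 4.51 FPKM in those labelled pdia6 null, and 1.83, 2.6 and 0.157 FPKM in wild type. The 12 endocrine markers summed to 9.64 to 236 FPKM, 5.05 to 11.1 FPKM and 0.534 to 4.4 FPKM in these groups, with insb at 0 in libraries labelled pdia6 null and in wild type. The 20 exocrine pancreas markers summed to 1204 to 5910 FPKM, 533 to 1207 FPKM and 466 to 1511 FPKM. The 25 intestine markers summed to 2172, 8560 and 1349 FPKM in libraries labelled focad null, 351, 2403 and 859.6 FPKM in those labelled pdia6 null, and 675, 1123 and 121 FPKM in wild type. Apoa4b.1 and apoa4b.2 made up most of some sums. They were at 2154 and 234 FPKM in the library labelled pdia6 null replicate 2, and at 1093 and 161 FPKM in that labelled focad null replicate 3. Fabp2 was at 3.45 FPKM in the former and 71.1 FPKM in the latter. Of the 25 intestine markers, 24 had a higher mean in libraries labelled focad null than in wild type, 14 without overlap, and 23 had a higher mean than in those labelled pdia6 null, 19 without overlap. Of all genes tested, 20% did not overlap in either direction between focad null and wild type. Against pdia6 null, 13.2% of all genes were higher in focad null without overlap. In libraries labelled pdia6 null, mep1a.2 and both lct IDs were at 0. Some pathway genes named above were highest in the library labelled focad null replicate 2, with intestine markers at 8560 FPKM. They include eno1 (ENSDARG00000022456), pfkfb3, pgd and creb3l3b, at 34.7, 5.63, 66.2 and 14.1 FPKM. Others, such as thrsp, scd and ppp1r3b, were lowest of their group there, at 904, 2.81 and 19.3 FPKM. The part of such tissue in the levels of the 9 genes, in their ratios, in ddit4 or in the pathway lists was not tested.

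Single markers varied between libraries. Of the 13 hepatocyte markers, 1 was higher without overlap in libraries labelled focad null than in wild type and 5 were lower without overlap. The other markers overlapped with a lower mean. Of all genes tested, 20% did not overlap in either direction there. In libraries labelled pdia6 null, 4 of the 13 had a higher mean than in wild type, 0 without overlap, and 5 were lower without overlap. Of all genes tested, 11% were lower without overlap in that comparison. The hepatocyte marker ahsg2 ran from 155 to 1549 FPKM and serpina1l from 3080 to 18127 FPKM. Across the 9 libraries fabp2 ran from 0.217 to 3637 FPKM, vil1 from 0.00693 to 192 FPKM and cdx1b from 0 to 6.2 FPKM for intestine. For exocrine pancreas prss1 ran from 73.6 to 1090 FPKM, prss59.1 from 40.4 to 752 FPKM and prss59.2 from 70.1 to 804 FPKM. The hepatocyte genes fabp10a, tfa and apoa2 never fell below 11015, 7458 and 31680 FPKM. Gcga, of pancreatic alpha cells, was at 5.66 and 9.33 FPKM in libraries labelled focad null replicates 1 and 2. It was at or below 0.33 FPKM in the rest. Gcg (ENSDARG00000040907, matched by its human name) was at 12.8 and 8.09 FPKM in these libraries and at or below 0.668 FPKM in the rest. Kidney markers summed to 31.5 to 82.1 FPKM, 90.6 to 203 FPKM and 52.1 to 88.1 FPKM in libraries labelled focad null, in those labelled pdia6 null and in wild type. These sums include slc20a1 (ENSDARG00000010641) at 19.2 to 193 FPKM, highest in libraries labelled pdia6 null. In contrast, slc26a1, slc12a3 and slc13a1 peaked in the library labelled focad null replicate 2, at 7.46, 0.848 and 24.4 FPKM. Of the 9 kidney markers, 3 were higher without overlap in focad null than in pdia6 null, and 1 was lower. Blood and macrophage markers summed to 63.5 to 122, 209 to 587 and 133 to 230.2 FPKM in focad null, pdia6 null and wild type. They were led by hbaa1 at 41.4 to 565 FPKM. Hbaa2 was at or below 1.83 FPKM, alas2 at or below 12.3 FPKM, and lyz at 0 in every library. Slc4a1 (ENSDARG00000012881) reached 2.54 FPKM and mpeg1 (ENSDARG00000055290) 7.42 FPKM, while slc4a1 (ENSDARG00000024560) and mpeg1 (ENSDARG00000078569) were at 0. Markers of female liver summed to no more than 10.3 FPKM in any library, and vtg1, vtg2 and vtg3 did not exceed 1.15 FPKM.

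The genes most like pck1 and igfbp1 across the 9 libraries were found by the root mean square distance of log2(FPKM + 1), each gene centred on its own mean. For pck1, whose own deviation was 2.59, the nearest were pnp (ENSDARG00000078619), a purine nucleoside phosphorylase gene, at 1.14, isg15, an interferon-induced gene, at 1.19 and the unannotated Novel00661 at 1.22. Pnp stood at 327, 179 and 262 FPKM in libraries labelled focad null, 7.09, 33.1 and 173 FPKM in those labelled pdia6 null, and 51.4, 432 and 731 FPKM in wild type. Even the nearest gene thus lay far from pck1 in single libraries. For igfbp1, with a deviation of 1.17, the nearest were sgk1, a glucocorticoid-induced kinase gene, at 0.38, serpinf1 at 0.46 and msrab at 0.50. Sgk1 stood at 182, 204 and 286 FPKM in libraries labelled focad null, 86.1, 34.9 and 61.4 FPKM in those labelled pdia6 null, and 65.4, 225 and 419 FPKM in wild type. Like igfbp1 it had its highest value in wild-type replicate 3, but wild-type replicate 1 lay within the range of libraries labelled pdia6 null. The distance is a description over 9 libraries that share their groups.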

How the data were processed

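Liver RNA of 9 zebrafish libraries was compared, with groups and replicate numbers taken from the sample titles. The labels' protocols describe snap freezing, Qiagen kits for extraction and an input of 1 µg RNA with an integrity number above 6.5. The submitters' processing notes name TopHat2 2.0.12, Bowtie2 2.2.3, HTSeq 0.6.1 and danRer11, without role or order. No source used here states the strand setting. The authors deposited 1 FPKM value per gene and library. For each null against wild type they also deposited p-values, adjusted p-values and group means of read counts, a signal on a scale of their own per the file headers. Log2 ratios were recomputed from these deposited means.

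A library factor, the median ratio over 7660 genes (1 FPKM or more in every library), was divided out of the FPKM. The 13289 genes averaging 0.5 FPKM or more were tested on log2(FPKM + 1), a scale that understates changes of low genes. Group means were fitted by limma 3.58.1 under R 4.3.3 (lmFit, then eBayes, trended and robust), leaving 6 residual degrees of freedom, with two-sided p-values, Benjamini-Hochberg adjustment and a threshold of 0.05. The script was tested on simulated data. Other software was Python 3.11.15 with numpy 2.4.6, pandas 2.3.3 and matplotlib 3.10.9.

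Reads were recovered by taking FPKM values as whole multiples of 1 read. For each of 26489 gene IDs the search took a small number of reads that made all libraries whole within 0.05. All 164599 low values came out whole, but the search required this, so it is no check of the reads. The recovered reads gave library totals and the input for limma voom. No pair within a group agreed within sampling noise (chi-square per degree of freedom 152 to 800.3). Symbols came from the name table given with the data (29201 of 33716 IDs), by human name where no zebrafish symbol matched, so 180 of 186 pathway symbols and 85 of 95 marker symbols matched. IDs that share a name may be near-identical copies, whose reads the counting could have split. One gene of the set of 10 is not reported here. The genes, the 6 pathway lists and the 7 marker lists were chosen with earlier results of these data known. Named besides the 9 genes were the targeted genes, called list genes or the 2 of lowest p, first markers and nearest genes. Alternatives were pseudocounts of 0.1 and 0.5, a minimum mean of 2 FPKM or none, FPKM as deposited, upper-quartile rescaling, fits of 6 libraries, a replicate block, voom, each library left out, 2 pairs of libraries left out, and the authors' tables.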

Additional observations from a re-analysis of the deposited data

How the results depend on the processing

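None of the 9 genes was called for focad null against wild type in any of 21 alternatives. In 1 of 21 for pdia6 null against wild type, and in 3 of 20 for focad null against pdia6 null, 1 was called. Those 3 were the fit of the 6 libraries compared and the fits without wild-type replicate 1 or without wild-type replicate 3. The gene was pck1 without wild-type replicate 1 and igfbp1 in the others. The cause of the changed calls below was not tested.

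Over all genes, 207 were called for focad null against wild type, with 97 at a minimum mean of 2 FPKM, 95 with voom, 136 without the first replicates of wild type and pdia6 null, and 89 to 483 with 1 library left out (fewest without focad null replicate 1, most without focad null replicate 3). For pdia6 null against wild type 163 were called, with 91, 78 and 107 in those settings, 428 in the authors' deposited table and 75 to 256 with 1 library left out (fewest without wild-type replicate 2, most without focad null replicate 2). For focad null against pdia6 null 160 were called, with 254 at a pseudocount of 0.1, 73 with voom, 67 without that pair of libraries and 60 to 631 with 1 library left out (fewest without focad null replicate 1, most without focad null replicate 3).

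Deviations of same-numbered libraries correlated at -0.19 to 0.29, with 3 of 9 pairs over 0.1. The highest were 0.29 and 0.23, for replicates 1 and 2 of pdia6 null and wild type. Differently numbered libraries were not compared, so whether the numbers pair the libraries was not tested. With a replicate block 121, 82 and 82 genes were called in the 3 comparisons, 0 of the 9 among them, and the adjusted p was 0.0611 for ddit4 against wild type, 0.0673 for ehhadh, and 0.119 and 0.086 for slc25a20.

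Some log2 differences of the 9 genes changed sign. For focad null against wild type, fbp1b was -0.0051 under upper-quartile rescaling and -0.33 without the first replicates of wild type and pdia6 null, where igfbp1 was -0.15. With 1 library left out, fbp1b ran from -0.33 to 0.61, fbp1a from -0.69 to 0.019 and igfbp1 from -0.15 to 0.86. For pdia6 null against wild type, fbp1b was 0.78 without the 2 libraries that go against their labels and 0.37 without the other pair, where irs2 (ENSDARG00000075282) was -0.035. With 1 library left out these ran from -0.74 to 0.79 and from -0.36 to 0.62. For focad null against pdia6 null, pklr was -0.054 under upper-quartile rescaling and -0.23 without the other pair. Fbp1b was -0.40 and -0.69, and fbp1a -0.11 and -0.064, without the off-label pair and without the other pair. With 1 library left out, pklr ran from -0.23 to 0.29, fbp1b from -0.69 to 0.83 and fbp1a from -0.061 to 0.76. The log2 ratio of the authors' group means, which is not a difference of mean log2 values, also had another sign for some genes. It was -0.086 for fbp1b and -0.029 for igfbp1 for focad null against wild type. For pdia6 null against wild type it was 0.088 for fbp1b and -0.18 for irs2 (ENSDARG00000075282). For pck1 in focad null against wild type it was 0.64, beside 1.71 in the fit.

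List medians moved without the off-label pair to 0.18 (gluconeogenesis partners), 0.12 (insulin and IGF signalling) and 0.33 (glycogen) for focad null against wild type, and to 0.40 (feeding lipid synthesis) for focad null against pdia6 null. The glycolysis median was -0.015 for pdia6 null against wild type and 0.27 for focad null against pdia6 null with no filter, and 0.25 for the last without the other pair. With 1 library left out, medians for focad null against wild type ran from -0.23 to 0.18 (gluconeogenesis), -0.19 to 0.12 (insulin and IGF), 0.14 to 0.70 (fasting) and -0.014 to 0.39 (glycogen). For pdia6 null against wild type glycogen ran from -0.019 to 0.13. For focad null against pdia6 null they ran from 0.25 to 0.62 (glycolysis), -0.24 to 0.49 (feeding lipid synthesis) and -0.17 to 0.24 (glycogen).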
